A study of Mus musculus with 8 samples.

Results

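Polycomb group genes encode the subunits of chromatin complexes that keep developmental genes silent. Of 36 such genes chosen by name, 30 had at least 1 probe set of their own among the 12394 genes of the array. The other 6 were not analysed here: no probe set named Pcgf3, Pcgf5, Phc3, Bcor or L3mbtl2, and the one naming Rybp also named Rybp-ps. Each gene was read by its brightest probe set, taken over all 8 arrays, and 20 of the 30 genes had further probe sets to set beside it.

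The arrays came from mouse J1 embryonic stem cells, an established line grown in serum with leukemia inhibitory factor on gelatin. There were 4 groups of 2 arrays: cells with Fbxl19 knocked down by shRNA1, cells with Fbxl19 knocked down by shRNA2, cells on day 4 of differentiation, and cells with a control hairpin (shControl), against which the other groups were set. The method of differentiation is not stated in the labels, nor is the presence of any hairpin in the day 4 cells. Nothing says that the 2 arrays of a group came from separate cultures, so p-values reflect array-to-array spread that may be purely technical. Titles name Fbxl19 as the target on all 4 knockdown arrays and were followed, but the descriptions name it on 1 of them and Fbxl20, Fbxl21 and Fbxl22 on the others. No probe set here names Fbxl19, so neither the target nor the strength of its knockdown could be checked.

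Polycomb repressive complex 2 (PRC2) methylates histone H3, and Polycomb repressive complex 1 (PRC1) attaches ubiquitin to histone H2A. PRC2 is built on Eed, Suz12, the histone-binding proteins Rbbp4 and Rbbp7 and 1 of the methyltransferases Ezh1 and Ezh2, with accessory subunits that steer it to unmethylated CpG-rich DNA. PRC1 pairs a ubiquitin ligase, Rnf2 or Ring1, with a PCGF protein. The canonical form adds PHC proteins, and CBX proteins that bring it to methylated H3. The variant forms add Rybp or Yaf2 in their place. In stem cells the variant form with Kdm2b reaches CpG islands through a CXXC zinc finger, a domain that Fbxl19 also has.

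CpG density at the start sites is shown first because CXXC proteins read unmethylated CpG. RefSeq promoter windows of assembly GRCm38.p6, running from 250 bases before to 50 bases after a start site, were available for 31 of the 36 genes. The others are Cbx2, Epop, Pcgf1, Rybp and Yaf2. The window of the most upstream start held a median of 24 CG pairs, with 4 (Aebp2) as the lowest and 54 (Scmh1) as the highest. The median over all 32841 windows was 7, with quartiles of 3 and 20, and 94.58% of them held at least 1 CG. Below are the windows of Mtf2 and Eed, which fell on day 4, and of E2f6, which rose, with CG pairs in capitals (CG reads the same on both strands).
Mtf2 (chr5:108065424-108065723, plus strand): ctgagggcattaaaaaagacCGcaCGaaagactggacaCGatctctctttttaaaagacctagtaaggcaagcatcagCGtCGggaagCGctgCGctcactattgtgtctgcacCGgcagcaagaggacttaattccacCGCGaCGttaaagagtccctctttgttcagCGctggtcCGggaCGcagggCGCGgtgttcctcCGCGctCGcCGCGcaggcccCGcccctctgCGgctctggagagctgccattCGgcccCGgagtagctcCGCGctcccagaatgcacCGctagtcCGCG
Eed (chr7:89980927-89981226, minus strand): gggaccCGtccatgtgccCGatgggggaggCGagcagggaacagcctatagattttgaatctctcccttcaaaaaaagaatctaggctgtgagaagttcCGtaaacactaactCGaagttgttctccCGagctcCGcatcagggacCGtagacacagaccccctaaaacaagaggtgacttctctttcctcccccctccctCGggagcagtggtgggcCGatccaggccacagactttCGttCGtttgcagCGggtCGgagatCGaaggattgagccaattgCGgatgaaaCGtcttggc
E2f6 (chr12:16810715-16811014, plus strand): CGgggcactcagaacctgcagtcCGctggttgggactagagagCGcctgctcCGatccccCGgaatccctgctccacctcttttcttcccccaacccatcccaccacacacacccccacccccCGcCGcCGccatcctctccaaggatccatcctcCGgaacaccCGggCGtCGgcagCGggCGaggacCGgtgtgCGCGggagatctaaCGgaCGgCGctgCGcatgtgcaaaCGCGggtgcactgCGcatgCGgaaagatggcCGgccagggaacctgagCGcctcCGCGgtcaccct
The Mtf2 window held 30 CG pairs and that of E2f6 held 29, and 11.68% and 12.94% of all windows held at least as many. The Eed window held 17, a number that 31.42% of all windows reached. All 3 windows shown, of the gene that rose and of the genes that fell, lay above the median in CG. Binding was not measured here. The letters TTCCCGC, part of the site read by E2F factors, were present on either strand in 4 of the 31 windows (Asxl1, Phf19, Scmh1 and Suz12), or 12.9%, and in 4.6% of all windows. None of these 4 genes was called in any comparison. The letters hold a CG, in which the 31 windows were richer, and 1 window per gene was set beside all windows. The 2 shares are therefore not alike, and their difference was not tested.

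On day 4, 5 genes fell and 3 rose among the 30 (limma, adjusted p under 0.05 over all 12394 genes), where 16.4% of all genes were called (8.73% lower and 7.67% higher). The 5 that fell all encode PRC2 subunits, among 12 PRC2 genes measured: Ezh2, Eed, Jarid2, Mtf2 and Epop. The 3 that rose encode PRC1 subunits, among 16 measured: Yaf2, E2f6 and Cbx6. The median change was -0.29 on the log2 scale over the PRC2 genes, 0.13 over the PRC1 genes and 0.00 over all genes. With Fbxl19 knocked down, 0 of the 30 genes passed the same test with either hairpin or with both averaged, where 0.0726% of all genes passed with both, 0.242% with shRNA1 and 0% with shRNA2. Epop came nearest, lying lower on all 4 knockdown arrays.

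**Figure D1:**
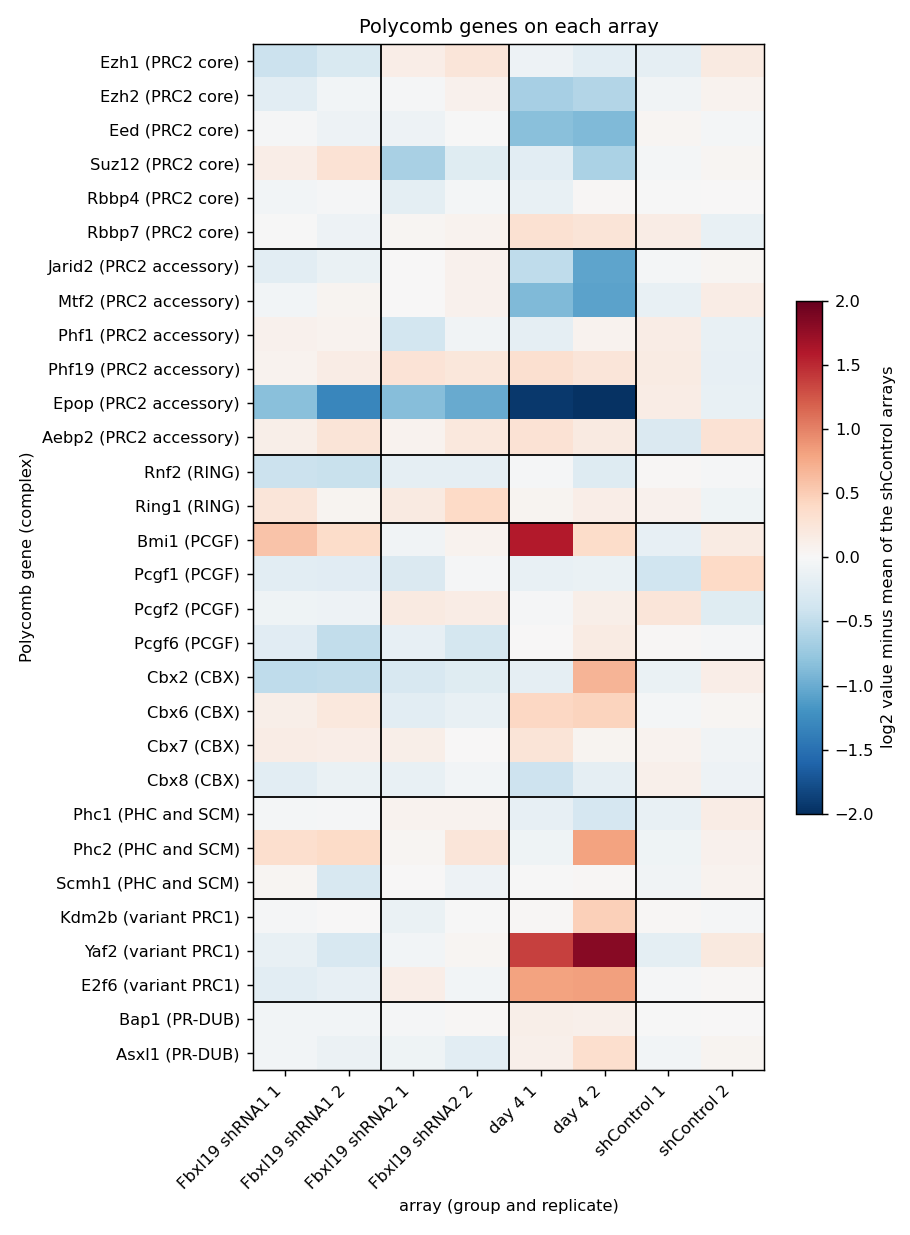
Each row is a Polycomb gene, grouped by complex, and each column an array; the colour gives the log2 value minus the mean of the 2 shControl arrays, capped at 2 in either direction. Epop is blue on all 4 knockdown arrays and darkest on day 4, while Yaf2 and E2f6 are red on the day 4 arrays.

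In the PRC2 core, Eed, which binds methylated H3 and stimulates the enzyme, had log2 values of 10.88 and 10.83 on the day 4 arrays, against 11.76 and 11.67 in shControl. It fell by 0.86 ± 0.13 (SE; adjusted p = 0.00188), to 0.550 of the control level. Both day 4 arrays lay below all 6 arrays of undifferentiated cells, which spanned 11.61 to 11.76. The second Eed probe set was dim, with a mean of 3.33 over the arrays, under each array's lower quartile, and had 0.20 ± 0.16 on day 4.

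Ezh2, the main methyltransferase of dividing stem cells, had 10.10 and 10.18 on day 4, against 10.70 and 10.83 in shControl. It fell by 0.63 ± 0.13 (adjusted p = 0.0126), and the groups did not overlap. The call was lost without shControl replicate 2 (-0.56, adjusted p = 0.0635, in a range of 0.00424 to 0.0792 over all alternatives). Its paralog Ezh1, which prevails in cells that divide little, had 6.15 and 6.03 on day 4, against 6.07 and 6.43 in shControl, and these overlapped (-0.16 ± 0.16, adjusted p = 0.563).

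Suz12, the scaffold of the core, had 10.65 and 10.23 on day 4, against 10.82 and 10.90 in shControl. The groups did not overlap, but the change of -0.42 ± 0.19 did not pass (adjusted p = 0.182). All 6 probe sets of Suz12 had a negative change on day 4, between -0.63 and -0.35. With every probe set tested as a feature of its own, 1 of them passed (the second brightest, -0.63 ± 0.18, adjusted p = 0.0473).

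Rbbp4 and Rbbp7, WD-repeat proteins that PRC2 shares with other chromatin complexes, had -0.06 ± 0.13 and 0.28 ± 0.14 on day 4, neither of which passed. The probe sets of Rbbp4 disagreed in size. The dimmest of the 3 had 8.83 and 9.22 on day 4, against 9.67 and 9.72 in shControl, a change of -0.67 ± 0.16 (adjusted p = 0.0234, every probe set tested). The change of Rbbp4 is therefore uncertain.

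Of the accessory subunits, Epop had the largest fall on day 4. Its protein joins PRC2 to elongin B and elongin C. It had 5.71 and 5.66 on day 4, against 7.79 and 7.49 in shControl, and fell by 1.95 ± 0.18 (3.87-fold; adjusted p = 0.000169). Only 0.839% of all genes had a change as low or lower. Set against the mean of both hairpins it fell by 0.95 ± 0.16 (adjusted p = 0.00285), and both day 4 arrays lay below all 4 knockdown arrays. Epop was read by a single probe set, as were Ezh2, E2f6 and Cbx6 among the genes called on day 4.

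Mtf2, a Polycomb-like protein that binds CpG-rich DNA and recruits PRC2, had 10.79 and 10.59 on day 4, against 11.53 and 11.81 in shControl. It fell by 0.98 ± 0.15 (1.97-fold; adjusted p = 0.00235). Its 4 probe sets, each tested on its own, all passed, with changes between -0.98 and -0.78. The other Polycomb-like genes did not pass: Phf19 had 5.92 and 5.84 on day 4, against 5.76 and 5.43 in shControl (0.28 ± 0.15, adjusted p = 0.244; -0.37 at its other probe set), and Phf1 had -0.06 ± 0.17.

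Jarid2, a cofactor that lacks demethylase activity and helps PRC2 find its targets, had 10.53 and 9.99 on day 4, against 11 and 11.08 in shControl. It fell by 0.78 ± 0.18 (adjusted p = 0.0181), and its 3 probe sets all passed when tested singly, with changes of -0.62, -0.78 and -1.11. The day 4 arrays differed more from each other than the controls did, and without day 4 replicate 2 the change was -0.51. The call was lost without either shControl array (adjusted p = 0.0617 without replicate 1 and 0.112 without replicate 2, in a range of 0.00141 to 0.112 over all alternatives). Aebp2, a zinc finger cofactor, had 0.23 ± 0.19 and did not pass.

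Of the variant PRC1 genes, Yaf2 rose most. It had 8.40 and 8.86 on day 4, against 6.84 and 7.23 in shControl, and rose by 1.60 ± 0.19 (3.02-fold; adjusted p = 0.000681). Its second probe set gave 1.81 ± 0.23. Both day 4 arrays lay above all 6 arrays of undifferentiated cells, which spanned 6.72 to 7.23. Rybp, the paralog that takes the same place in the complex, had no probe set of its own, so the balance of the pair was not measured.

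E2f6, a repressive E2F factor that brings a variant PRC1 to DNA, had 8.15 and 8.16 on day 4, against 7.32 and 7.38 in shControl, and rose by 0.81 ± 0.13 (1.75-fold; adjusted p = 0.00309). Pcgf6, which belongs to the same variant complex, had 10.17 and 10.32 on day 4, against 10.18 and 10.13 in shControl (0.09 ± 0.15, adjusted p = 0.763). Its other probe sets had -0.33 ± 0.16 and -0.01 ± 0.25, so the direction for Pcgf6 is uncertain. Kdm2b had 8.88 and 9.34 on day 4, against 8.88 and 8.83 in shControl, and these overlapped (0.25 ± 0.17, adjusted p = 0.367).

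Of the canonical PRC1 genes, Cbx6, a chromodomain protein, was the only one called. It had 8.53 and 8.55 on day 4, against 8.08 and 8.15 in shControl, and rose by 0.43 ± 0.12 (adjusted p = 0.0470). This call was marginal and was lost in 12 of 19 other settings, in each of them with a change of 0.39 or more. Cbx2 had 6.27 and 7.12 on day 4, against 6.31 and 6.58 in shControl, so its day 4 arrays lay on both sides of the controls. Phc2, a polyhomeotic protein that links PRC1 particles, had 7.05 and 7.94 on day 4, against 7.05 and 7.22 in shControl, and these overlapped. Both genes were decided by 1 array: without day 4 replicate 1 they passed, with 0.68 for Cbx2 and 0.81 for Phc2, and without day 4 replicate 2 they had -0.17 and -0.08.

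Bmi1, a PCGF protein of canonical PRC1, had 8.10 and 6.89 on day 4, against 6.35 and 6.69 in shControl. Its change of 0.97 ± 0.33 did not pass (adjusted p = 0.0790) and was set by 1 array: it was 0.37 without day 4 replicate 1 and 1.58 without day 4 replicate 2. Pcgf2, which can take its place, had 4.94 and 5.09 on day 4, against 5.22 and 4.73 in shControl. Its change was 0.05 ± 0.17, and -0.19 ± 0.18 at its other probe set. The catalytic genes showed no call, with -0.14 ± 0.13 for Rnf2 and 0.09 ± 0.15 for Ring1. Bap1 and Asxl1, which form the deubiquitinase that removes ubiquitin from H2A, had 0.10 ± 0.12 and 0.21 ± 0.14. Their other probe sets had -0.01 ± 0.13 and -0.23 ± 0.18, so both directions are uncertain.

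The remaining PRC1 genes (Cbx7, Cbx8, Phc1, Scmh1 and Pcgf1) had changes between -0.29 and 0.16 on day 4, and none passed. Over the 30 genes, 17 did not overlap between day 4 and shControl, 8 higher and 9 lower, where 50.4% of all genes did not overlap (24.1% higher and 26.3% lower). The share called, 8 of 30, is to be read against 16.4% of all genes.

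**Figure D2:**
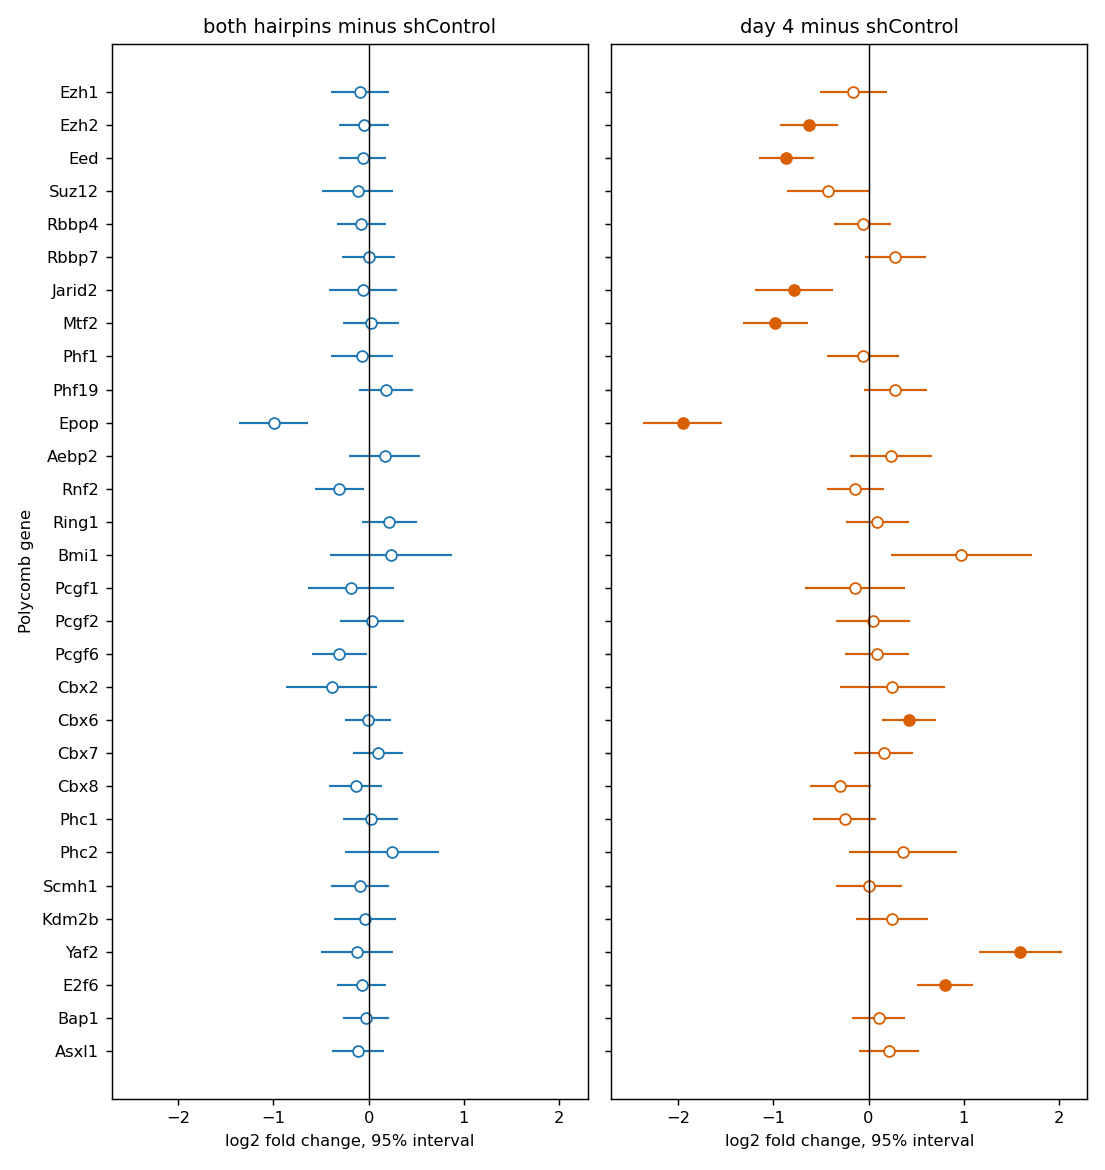
Log2 fold changes of the 30 Polycomb genes with both hairpins averaged (left) and on day 4 (right), each against shControl, with 95% intervals from the limma model; filled points passed an adjusted p of 0.05. On the right Ezh2, Eed, Jarid2, Mtf2 and Epop lie to the left of 0 and Cbx6, Yaf2 and E2f6 to the right; on the left only Epop, at -1.0, stands well away from 0.

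These are bulk RNA values, in which fewer cells of a type and less RNA per cell cannot be told apart. Markers of undifferentiated stem cells were lower on day 4: 6 of 9 fell, and their summed linear level was 21600 to 22600 on day 4, against 38000 to 38500 in shControl. Of 4 trophoblast markers, 3 rose, with a summed level of 314 to 690 on day 4, against 100 to 121 in shControl. The day 4 sum was mostly Eomes, with log2 values of 7.87 and 9.21, against 5.55 and 6.14 in shControl. Primitive endoderm markers summed to 106 to 123 on day 4, against 236 to 295 in shControl, with 1 of 5 called, lower. That difference was mostly Lama1, with 4.91 and 4.74 on day 4, against 7.36 and 7.78 in shControl. By direction, 2 of the 5 had changes above 0 and 3 below. Of 6 fibroblast feeder markers 1 was called, lower, and 3 had changes above 0 and 3 below. Their summed level was 669 to 1310 on day 4, against 1940 to 2320 in shControl. Most of that sum was Fn1, with 10.21 and 9.09 on day 4, against 10.83 and 11.09 in shControl. Some markers had shControl means under each array's lower quartile: 3 of the 6 feeder, 2 of the 4 trophoblast and 1 of the 5 primitive endoderm markers. The changes of those markers are poorly bounded. Of 4 early neural markers 1 was called, and of 3 mesoderm markers 1, both lower. The counts called are to be read against 16.4% of all genes. The part of these cell types in the Polycomb changes was not tested. Set against the mean of both hairpins, which leaves shControl out, the same 8 genes were called in the same directions (5 lower and 3 higher), where 21.4% of all genes were called.

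**Figure D3:**
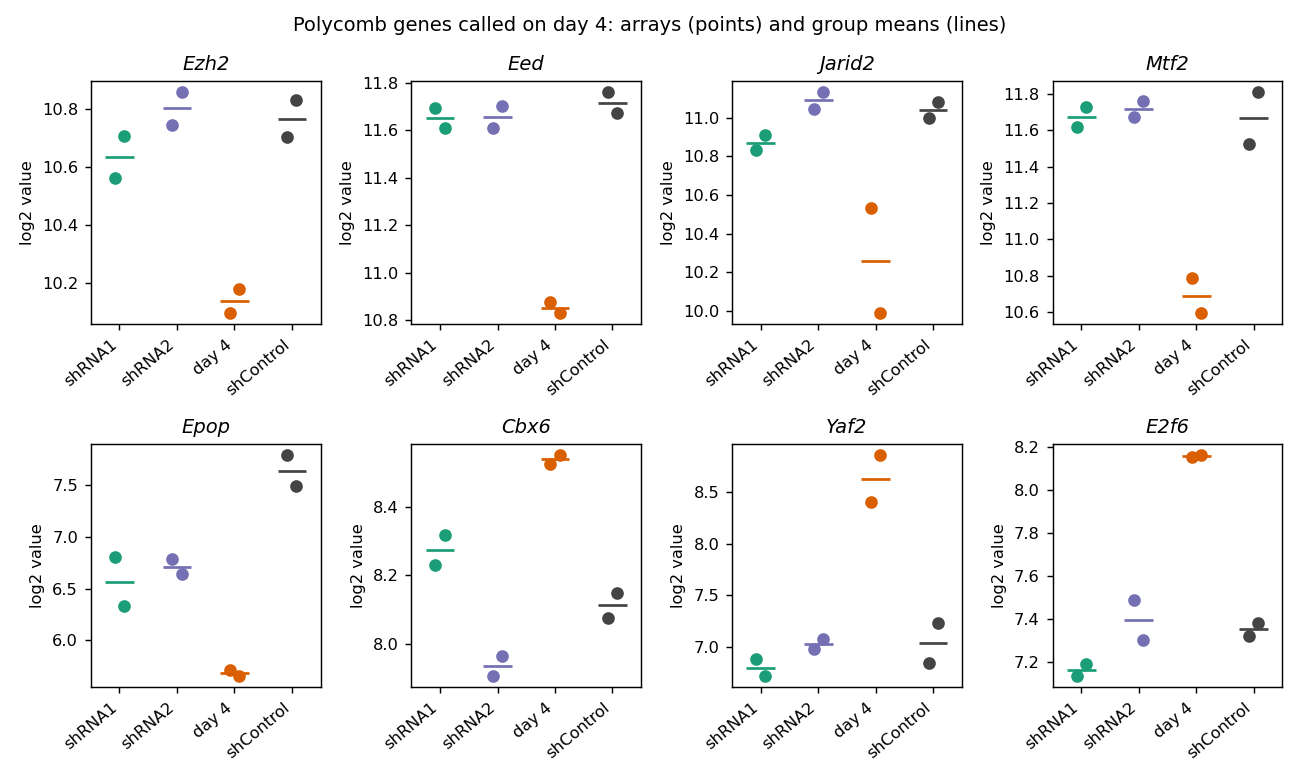
Log2 values on each array (points) and group means (lines) for the 8 Polycomb genes called on day 4, by group. In each panel the 2 day 4 arrays lie outside the range of all 6 undifferentiated arrays.

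With Fbxl19 knocked down, Epop had the lowest mean change of the 30 genes. It had 6.80 and 6.33 with shRNA1, 6.78 and 6.64 with shRNA2, and 7.79 and 7.49 in shControl, so all 4 knockdown arrays lay below both controls. The change was -1.07 ± 0.18 with shRNA1 (adjusted p = 0.0642) and -0.93 ± 0.18 with shRNA2 (adjusted p = 0.293), comparisons that share the control arrays. With both averaged it was -1.0 ± 0.16 (95% interval -1.36 to -0.64), and 0.0323% of all genes had a change as low or lower. The adjusted p of 0.0918 did not pass.

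Whether Epop passed differed between settings. An alternative fit held just the groups being compared, so it left out day 4 and, for a single hairpin, the other hairpin. The adjusted p was then 0.0402 for both hairpins, 0.0262 for shRNA1 and 0.0287 for shRNA2. The share of all genes called in that fit is not given here. The difference between the 2 arrays of a group had an SD over all genes of 0.408 on day 4, 0.205 with shRNA1, 0.223 with shRNA2 and 0.312 in shControl. The part of this spread in the Epop call was not tested. Over all alternatives the adjusted p for both hairpins lay between 0.0402 and 0.509, that for shRNA1 between 0.0262 and 0.532, and that for shRNA2 between 0.0287 and 1. Without shControl replicate 1 the mean change was -0.85 and without shControl replicate 2 it was -1.15. Of 2 measures of RNA quality, the actin 3'-to-5' difference separated shControl from the other groups. It was 0.71 and 0.70 with shRNA1, 0.73 and 0.76 with shRNA2, 0.73 and 0.65 on day 4, and 0.60 and 0.54 in shControl, and its part in the Epop difference was not tested. The Gapdh 3'-to-5' difference overlapped between the groups, with 0.23 and 0.18 with shRNA1, 0.27 and 0.20 with shRNA2, 0.26 and 0.20 on day 4, and 0.17 and 0.26 in shControl. The elongin genes Elob and Eloc, whose proteins Epop binds, had -0.05 ± 0.12 and 0.01 ± 0.11 with both hairpins.

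Over the 30 genes, 0 were called by limma with both hairpins averaged, where 0.0726% of all genes were. An unadjusted p under 0.05 was found for 3 (Epop, Rnf2 and Pcgf6, all lower), where 8.42% of all genes had one. Of the 12394 genes, 508 had such a p and were lower, and 536 higher. For 5 genes, all lower, the knockdown arrays lay apart from the controls, against 20.1% of all genes (10.6% lower and 9.53% higher). The median change was -0.06, against 0.00 over all genes, and 9 of the 30 lay above 0, as did 6080 of all 12394 genes. Of the 31 cell type markers, limma called 0 with both hairpins, and 4 had an unadjusted p under 0.05, 2 higher and 2 lower. The lowest adjusted p-values among them were those of the trophoblast marker Krt7 and the neural marker Tubb3, named here after their values were seen. Krt7 had 4.89 and 4.86 with shRNA1, 4.32 and 5.05 with shRNA2, and 3.81 and 3.15 in shControl, a mean change of 1.30 ± 0.23 (adjusted p = 0.116). Both shControl values of Krt7 lay under the lower quartile of their array, so its change is poorly bounded. Tubb3 had 6.70 and 6.33 with shRNA1, 7.15 and 6.76 with shRNA2, and 7.40 and 7.30 in shControl, a mean change of -0.61 ± 0.16 (adjusted p = 0.312). Neither overlapped between knockdown and shControl, and their part in the Polycomb values was not tested. The summed trophoblast level was 109 to 135 with shRNA1 and 100 to 133 with shRNA2, against 100 to 121 in shControl. The early neural one was 262 to 279 with shRNA1 and 279 to 335 with shRNA2, against 319 to 369 in shControl. With both hairpins averaged, 2 of the 4 trophoblast markers had changes above 0 and 2 below. Of the 4 early neural markers, 1 had a change above 0 and 3 below.

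Rnf2, the main ubiquitin ligase of PRC1 in stem cells, had 10.74 and 10.74 with shRNA1, 10.99 and 10.99 with shRNA2, and 11.19 and 11.16 in shControl. All 4 knockdown arrays lay below both controls, with a mean change of -0.31 ± 0.11 (adjusted p = 0.521). The next brightest of its 5 probe sets had -0.43 ± 0.11 and did not pass either. The remaining, dimmer ones had 0.04 ± 0.14, -0.55 ± 0.22 and -0.04 ± 0.15, and none passed. Ring1, its paralog, had 6.38 and 6.19 with shRNA1, 6.31 and 6.53 with shRNA2, and 6.22 and 6.05 in shControl, a mean change of 0.22 ± 0.13 with overlapping arrays.

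Pcgf6 had 9.93 and 9.67 with shRNA1, 9.99 and 9.81 with shRNA2, and 10.18 and 10.13 in shControl, again with all knockdown arrays lower (-0.31 ± 0.13, adjusted p = 0.563). Its other probe sets had -0.61 ± 0.14 and -0.07 ± 0.21 and did not pass. Cbx2 had 5.93 and 5.96 with shRNA1, 6.13 and 6.20 with shRNA2, and 6.31 and 6.58 in shControl (-0.39 ± 0.21, adjusted p = 0.668). Its other, dimmer probe set had 0.13, so the direction for Cbx2 is uncertain. On the higher side, Phc2 had 7.47 and 7.52 with shRNA1, 7.17 and 7.38 with shRNA2, and 7.05 and 7.22 in shControl (0.25 ± 0.22). Bmi1 had 7.09 and 6.89 with shRNA1, 6.45 and 6.59 with shRNA2, and 6.35 and 6.69 in shControl (0.23 ± 0.28), so only the shRNA1 arrays lay above the controls. The other, dimmer Bmi1 probe set had a mean change of -0.05 ± 0.37.

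For the other genes called on day 4, the intervals with both hairpins averaged included 0. Mtf2 had 0.03 ± 0.13 (95% interval -0.27 to 0.32), Eed -0.06 ± 0.11 (-0.31 to 0.19), Ezh2 -0.05 ± 0.12 (-0.31 to 0.21) and Jarid2 -0.06 ± 0.16 (-0.41 to 0.29). Yaf2 had -0.12 ± 0.17 (-0.50 to 0.26), E2f6 -0.07 ± 0.11 (-0.33 to 0.18) and Cbx6 -0.01 ± 0.11 (-0.25 to 0.24). Kdm2b, a CXXC and F-box protein like Fbxl19, had 8.84 and 8.86 with shRNA1, 8.72 and 8.85 with shRNA2, and 8.88 and 8.83 in shControl. Its mean change was -0.04 ± 0.14 (-0.37 to 0.29). These intervals bound the mean change of each gene and do not show that it was absent.

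With shRNA1 alone, 0 of the 30 genes were called, where 0.242% of all genes were, and 4 had an unadjusted p under 0.05, where 9.83% of all genes had one. These were Epop, Rnf2 (-0.43 ± 0.13), Pcgf6 (-0.36 ± 0.15) and Ezh1 (-0.37 ± 0.16), all lower. Of the 12394 genes, 640 had such a p and were lower, and 578 higher. The shRNA1 and control arrays of 15 genes did not overlap, 5 higher and 10 lower, where 43.4% of all genes did not (20.4% higher and 23% lower). With shRNA2 alone, 0 of the 30 genes were called by limma, and 0% of all genes. At an unadjusted p under 0.05 there were 2, Epop and Suz12, where 5.1% of all genes had one. The arrays of 10 genes did not overlap, 2 higher and 8 lower, where 33.1% of all genes did not (15.4% higher and 17.8% lower). The highest with shRNA2 were Ring1 (0.28 ± 0.15), Phf19 (5.87 and 5.83 with shRNA2, against 5.76 and 5.43 in shControl) and Ezh1 (0.19 ± 0.16). The other, dimmer Ezh1 probe set had -0.07 ± 0.22 with shRNA2.

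Between the hairpins, 0 of the 30 genes were called, where 0.105% of all genes were, and 3 had an unadjusted p under 0.05 (Suz12, Ezh1 and Cbx6), where 5.15% of all genes had one. The arrays of 18 genes did not overlap, 12 higher with shRNA2 and 6 lower, where 43.6% of all genes did not (21.9% higher and 21.7% lower). Suz12 was 10.22 and 10.62 with shRNA2, against 10.99 and 11.15 with shRNA1, with 10.82 and 10.90 in shControl between them. The difference, shRNA2 minus shRNA1, was -0.65 ± 0.19 (adjusted p = 0.503). All 6 Suz12 probe sets had the same sign, with differences between -0.68 and -0.32, and none passed. These probe sets read the same gene on the same arrays and are not replicates. Without shRNA2 replicate 1 the difference was -0.45 and without shRNA2 replicate 2 it was -0.85.

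Ezh1 differed the other way, with 6.38 and 6.49 with shRNA2, against 5.82 and 5.94 with shRNA1 (0.56 ± 0.16, adjusted p = 0.478; 0.49 at its other probe set). With array weights in the fit this difference passed (adjusted p = 0.0418, the lowest over all alternatives, of which the highest was 1). Cbx6 had 7.91 and 7.96 with shRNA2, against 8.23 and 8.32 with shRNA1, and the shControl arrays (8.08 and 8.15) lay between them. Bmi1 had -0.47 ± 0.33 and Pcgf2 0.25 ± 0.17, with 5.16 and 5.12 with shRNA2, against 4.89 and 4.87 with shRNA1. The other, dimmer probe set of Pcgf2 had -0.10 ± 0.18, so its direction is uncertain.

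**Figure D4:**
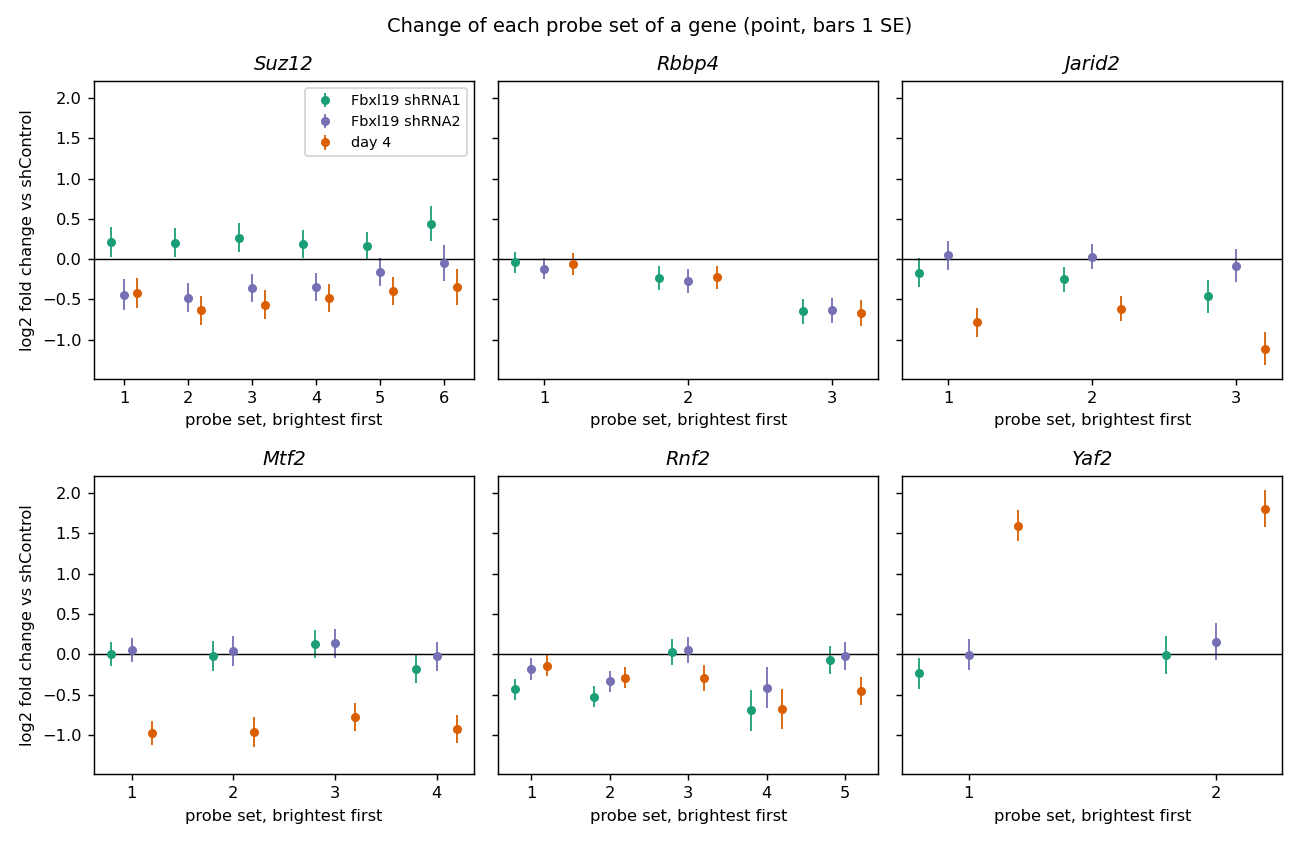
Log2 fold change against shControl of each probe set of 6 Polycomb genes, ordered from the brightest probe set, for shRNA1, shRNA2 and day 4; bars are 1 SE. For Suz12 every shRNA1 point lies above 0 and every shRNA2 point below it, for Mtf2 and Jarid2 every day 4 point lies between -1.11 and -0.62, and for Rbbp4 the third probe set lies lower than the others.

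Across the 20 genes with further probe sets there were 32 other probe sets. On day 4, 25 of the 32 had the sign of the probe set used, and 3 differed from it by more than 1.5-fold (those of Eed, Phf19 and Rbbp4). With both hairpins averaged, 23 of 32 shared the sign. The dimmer Rbbp4 probe set had -0.65 ± 0.16 with shRNA1 and -0.64 ± 0.16 with shRNA2, close to its day 4 value, while the brightest had -0.04 ± 0.13 and -0.12 ± 0.13.

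Beyond the 30 genes, a list of 46 genes whose products join or oppose Polycomb complexes had 29 members measured. On day 4, 1 of these rose and 3 fell, where 16.4% of all genes were called. With both hairpins 0 were called by limma, where 0.0726% of all genes were. An unadjusted p under 0.05 was found for 5, all lower, where 8.42% of all genes had one (508 of 12394 lower and 536 higher). Wdr5, a WD-repeat protein shared by methyltransferase and variant PRC1 complexes, fell by 0.86 ± 0.14 on day 4 (adjusted p = 0.00332). Ehmt2, which methylates histone H3, fell by 0.71 ± 0.21, and Max, the partner of Mga in the variant PRC1 that holds E2f6, fell by 0.50 ± 0.15, each close to the threshold. Auts2, which turns a variant PRC1 towards activation, rose by 0.66 ± 0.18 (adjusted p = 0.0361).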

How the data were processed

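RNA from 8 samples was hybridised to 1-colour arrays, in 4 groups of 2. Each probe set has a log2 value that the authors deposited after RMA, which the submitters' processing notes name. Its version and the set of arrays it was run on together are not given in the sources. Probe sets were named through the platform annotation and current symbols by gene identifier: 20393 of 22690 had 1 symbol. The brightest probe set stood for each of 12394 genes. Changes were fitted on all 8 arrays with limma 3.58.1 in R 4.3.3, with Benjamini-Hochberg adjusted p over all genes, and the procedure was tested on simulated data. Values on the arrays of the compared groups are given for Polycomb genes called in a comparison and for the 3 largest rises and falls in each. Up to 4 called genes are named from each other list. The Polycomb genes and the gene lists were chosen with earlier results of these data known. Alternatives changed the probe set rule, filter, scaling, variance model, arrays and replicate block. The number of arrays limits the precision. No genome build goes with the values, so probe sets have no coordinates here.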

Additional observations from a re-analysis of the deposited data

How the results depend on the processing

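The number of Polycomb genes called on day 4 differed from 8 in 12 of 19 settings, lying between 5 and 9. When the fit held just the compared groups it was 1 with both hairpins, 1 with shRNA1, 1 with shRNA2 and 5 on day 4, and with array weights it was 1 between shRNA2 and shRNA1. Leaving out 1 array at a time gave 0 to 1 with both hairpins and with shRNA1, 0 with shRNA2 and between the hairpins, and 5 to 9 on day 4, lowest without shControl replicate 2 and highest without day 4 replicate 1. With the replicate number as a block it was 1 with both hairpins and 1 with shRNA1 (Epop in each, adjusted p = 0.0422 and 0.0316), and no other comparison's count moved by over 1.5 times. The differences between the 2 arrays of a group correlated at 0.261 between shRNA1 and shControl, 0.226 between shRNA2 and shControl, 0.504 between shRNA2 and shRNA1, 0.0698 between day 4 and shControl, -0.0221 between day 4 and shRNA1 and -0.0776 between day 4 and shRNA2, and the labels tie the numbers to no shared culture or day. With 2 arrays a group this does not settle whether the numbers pair the samples, and the block was kept as an alternative. Of the 8 day 4 calls, Mtf2, Epop, Yaf2 and E2f6 held in 19 of 19 alternatives, Eed in 18 (lost with the mean of its probe sets, -0.33), Ezh2 and Jarid2 in 16 each and Cbx6 in 7. Day 4 against the mean of both hairpins was added after seeing the data. The causes of these shifts were not tested. The share of all genes called is not given beside the counts in this section, which show only how the calls moved. Pcgf1 and Cbx7 were left out by the filter on the dimmest 30% of genes.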

Other observations

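Of 42 known targets of Polycomb repression, mostly developmental regulators, 37 were measured. On day 4, 6 rose and 3 fell, where 16.4% of all genes were called, and the median change was 0.05. Eomes, a T-box factor of trophoblast and mesendoderm, rose by 2.70 ± 0.43 (limma, adjusted p = 0.00306), and Fgf5, a growth factor of the early epiblast, by 2.20 ± 0.37 (adjusted p = 0.00389). The homeobox gene Msx2 rose by 1.47 ± 0.17. Fgf5 and Msx2 had control means of 3.40 and 3.48, under each array's lower quartile, so their changes are poorly bounded. Tbx3, a T-box factor of naive stem cells, fell by 2.46 ± 0.62 (adjusted p = 0.0270). The other 5 called targets had changes between -0.96 (Neurod1) and 0.59 (Cdx2).

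With both hairpins averaged, limma called 0 of these 37 targets, where 0.0726% of all genes were called. An unadjusted p under 0.05 was found for 3 (2 higher and 1 lower), where 8.42% of all genes had one. Named after their values were seen, they were Neurod1 (1.16 ± 0.20, adjusted p = 0.110), Cdkn2b (0.67 ± 0.12, adjusted p = 0.120) and Cdkn1c (-0.39 ± 0.14, adjusted p = 0.483). The median change was 0.00.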
